A study of Homo sapiens with 12 samples.

Results

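The replication-dependent histone genes encode the core histones H2A, H2B, H3 and H4 and the linker histone H1 that package newly copied DNA. They were taken as every row of the deposited gene tables named HIST1, HIST2, HIST3 or HIST4 with a class H1 to H4 in its name, without names that end in PS and a number, which mark pseudogenes. HIST2H3DP1, also named as a pseudogene, stays among the members by this rule and averaged 0.00423 FPKM. The GENCODE records used below also type HIST2H2BA, HIST2H2BB, HIST2H2BC, HIST2H2BD and HIST3H2BA as pseudogenes. These genes stay among the members too, in class H2B. The rule found 76 of the 57755 genes: 6 of class H1, 17 of H2A, 23 of H2B, 15 of H3 and 15 of H4. No measured value entered the rule. Of the 76 genes, 55 lie in the HIST1 cluster on chromosome 6, 16 in HIST2 and 4 in HIST3 on chromosome 1, and HIST4H4 lies on chromosome 12.

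Most cellular mRNAs end in a poly(A) tail. The mRNAs of these histone genes end instead just after a conserved stem-loop, which is bound by SLBP and cut with the help of the U7 snRNP. Transcription of the clusters in S phase depends on NPAT, a substrate of cyclin E-CDK2, and the mRNAs are destroyed when DNA synthesis stops. When 3' end processing at the stem-loop is skipped, a downstream polyadenylation site can be used, and such tailed transcripts enter libraries made from polyadenylated RNA. The values below therefore describe tailed or otherwise captured histone transcripts, and not the whole pool of histone mRNA.

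The libraries came from KYSE510 and TE7, established cell lines from human esophageal squamous cell carcinoma. THZ1 is a covalent inhibitor of CDK7, the kinase of the transcription factor TFIIH, and also inhibits CDK12 and CDK13 at higher doses. Each line gave 1 library for DMSO, for 50 nM THZ1 after 2, 4, 6 and 12 h, and for 200 nM THZ1 after 6 h, 12 libraries in all. KYSE510 was grown in RPMI-1640 and TE7 in DMEM. The DMSO libraries carry 0 h in the title and 12 h in the time label, so time in culture and THZ1 exposure cannot be told apart from these labels. The lines stood in for replicates (n = 2), no label says that cultures were separate, and a p-value therefore reflects no more than how far these 2 lines differ, which may be technical.

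FPKM summed to 384000 to 729500 per library, 11685 to 13982 genes reached 1 FPKM, and the number of sequenced fragments is unknown. At least 9 of 10 squamous epithelial markers reached 1 FPKM in every library, whereas none of the leukocyte markers and none of the 3 endothelial markers in the tables did. The fibroblast markers summed to at most 11.3 FPKM, with 1 to 3 of 5 genes at 1 FPKM. The library labelled KYSE510 DMSO and both libraries labelled 200 nM stood apart from their own line. Their highest correlation with a 50 nM library of their own line, over log2(FPKM + 1) of the tested genes, was 0.879, 0.865 and 0.865, against 0.964 to 0.992 for the other 9 libraries. Of 34 genes with at least 5 FPKM in each 50 nM library of KYSE510 and less than 0.1 in each of TE7, the libraries labelled KYSE510 DMSO and KYSE510 200 nM had 15 and 13 at 1 FPKM or more. The library labelled TE7 200 nM had 9 of them, and only 25 of the 100 genes chosen the same way for TE7. Test counts of members that rest on these 3 libraries are therefore given with and without them where the design allows. Contrasts of other genes with DMSO are given from the 12 libraries alone.

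The stem-loop is the feature that sets these mRNAs apart, so its sequences are shown by class. GENCODE 29 (GRCh38) held a record for 75 of the 76 genes, 40 by identifier and 35 by name. In 31 of them a transcript matched a set letter pattern with a stem of 6 fully complementary bases around a loop of 4. A gene without a match may still have a stem-loop. Many such genes had only short records (at most 381 bases for HIST1H2BK, 411 for HIST1H3A and 312 for HIST1H4A), which may end before it. Stem and loop are in capitals, with flanking bases in lower case.
HIST1H2BG (H2B): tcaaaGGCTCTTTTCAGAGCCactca
HIST3H2BB (H2B): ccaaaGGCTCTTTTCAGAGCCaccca
HIST3H2A (H2A): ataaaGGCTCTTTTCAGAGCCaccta
HIST1H3H (H3): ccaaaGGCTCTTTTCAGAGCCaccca
HIST1H3G (H3): aaaaaGGCTCTTTTAAGAGCCgccta
HIST1H4E (H4): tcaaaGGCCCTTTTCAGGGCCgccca
HIST4H4 (H4): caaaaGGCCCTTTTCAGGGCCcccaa
The form of HIST1H2BG was the commonest, in 17 genes of H2A, H2B and H3. HIST1H3G shared its form with 1 more H3 gene and 3 H2B genes. Every one of the 8 H4 stem-loops had a stem that began with GGCCCT, in 5 genes with the loop of HIST1H4E. In 22 of the 31 genes the annotated transcript that reached farthest ran more than 100 bases past the stem-loop, as it did for HIST1H2BG (1059 bases), HIST2H2BE (1729 bases) and HIST3H2BB (1917 bases).

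Promoter sequence also divided the classes. RefSeq windows on GRCh38.p14, from 250 bases before to 50 after the first listed start, were found for 61 members. Both strands were searched for CCAAT, the site of NF-Y, for TATAAA, and for the octamer ATTTGCAT, the site of POU factors such as OCT1. CCAAT stood in all 48 windows of H1, H2A, H2B and H3 genes but in 3 of 13 of H4 genes, against 35.7% of 27305 promoters. The octamer stood in 11 of 14 H2A and 14 of 18 H2B windows, in 1 of 10 of H3 and in none of H1 or H4, against 1.8% of all promoters. TATAAA stood in 40 of 61 windows, against 12% of all. In 11 pairs an H2A window overlapped an H2B window, by 253 to 293 of 300 bases. With both strands searched, the H2A and H2B counts thus largely describe the same DNA and are not independent. The 250 bases before the start are shown for 5 genes whose levels are followed below, with these motifs in capitals on either strand.
HIST1H1C (chr6:26056471-26056720, minus strand): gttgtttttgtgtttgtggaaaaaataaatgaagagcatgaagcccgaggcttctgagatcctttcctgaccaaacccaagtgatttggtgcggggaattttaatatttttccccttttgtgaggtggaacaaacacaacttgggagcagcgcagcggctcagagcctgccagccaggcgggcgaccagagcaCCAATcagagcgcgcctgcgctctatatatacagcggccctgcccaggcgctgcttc
HIST1H2BG (chr6:26216689-26216938, minus strand): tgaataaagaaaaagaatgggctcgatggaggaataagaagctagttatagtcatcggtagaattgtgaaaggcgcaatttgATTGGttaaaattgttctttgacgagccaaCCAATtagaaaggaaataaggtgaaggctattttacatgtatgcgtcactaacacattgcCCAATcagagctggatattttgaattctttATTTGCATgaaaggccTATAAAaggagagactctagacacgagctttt
HIST2H2BE (chr1:149886683-149886932, minus strand): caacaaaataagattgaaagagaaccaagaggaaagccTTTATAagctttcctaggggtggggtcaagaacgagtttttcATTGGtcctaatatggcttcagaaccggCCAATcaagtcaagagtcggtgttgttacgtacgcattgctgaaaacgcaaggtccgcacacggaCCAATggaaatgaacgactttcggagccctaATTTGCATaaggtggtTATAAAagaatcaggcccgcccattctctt
HIST3H2BB (chr1:228457853-228458102, plus strand): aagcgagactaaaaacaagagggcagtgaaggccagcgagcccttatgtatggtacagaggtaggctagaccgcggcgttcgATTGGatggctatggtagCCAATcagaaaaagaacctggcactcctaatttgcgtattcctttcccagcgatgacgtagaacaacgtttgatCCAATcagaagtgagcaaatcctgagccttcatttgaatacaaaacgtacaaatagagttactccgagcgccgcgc
HIST1H4D (chr6:26189113-26189362, minus strand): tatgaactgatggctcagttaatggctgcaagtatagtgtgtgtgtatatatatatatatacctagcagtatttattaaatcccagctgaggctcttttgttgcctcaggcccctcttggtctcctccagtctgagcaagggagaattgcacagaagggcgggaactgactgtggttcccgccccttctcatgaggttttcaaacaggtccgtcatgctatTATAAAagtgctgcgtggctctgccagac
HIST1H2BG and HIST2H2BE held all 3 motifs, HIST1H1C and HIST3H2BB held CCAAT alone, and HIST1H4D held TATAAA alone. A match is a description of the sequence and not a measured binding site.

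An H2B gene and an H1 gene were the most abundant members. Together they made up 63.6% to 69.3% of the histone FPKM in DMSO and 50 nM libraries of KYSE510, 25.4% in that labelled KYSE510 200 nM and 12.5% to 43.2% in the TE7 libraries. HIST1H2BK (hg19 chr6:27106073-27114619) averaged 67.5 FPKM over the 12 libraries and HIST1H1C (chr6:26055968-26056699) 44.0 FPKM, followed by HIST1H2AC at 11.5 FPKM. The rank of HIST1H2AC rests on the library labelled KYSE510 DMSO, at 62.2 FPKM there and at most 12.7 elsewhere. The next members by mean were HIST1H2BD at 8.27, HIST3H2A at 7.86, HIST2H2BE at 7.81, HIST1H2BH at 6.59, HIST1H2BG at 6.50 and HIST1H4C at 5.17 FPKM. These 9 genes were the members with a mean of at least 5 FPKM, and none of them was an H3 gene. The highest H3 gene was HIST1H3H at 3.92 FPKM. The median member averaged 1.23 FPKM, 17 members stayed below 1 FPKM in all libraries and 3 were at 0 throughout. Filtering for at least 1 FPKM in at least 2 libraries left 45 members: 3 of H1, 11 of H2A, 14 of H2B, 9 of H3 and 8 of H4.

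**Figure D1:**
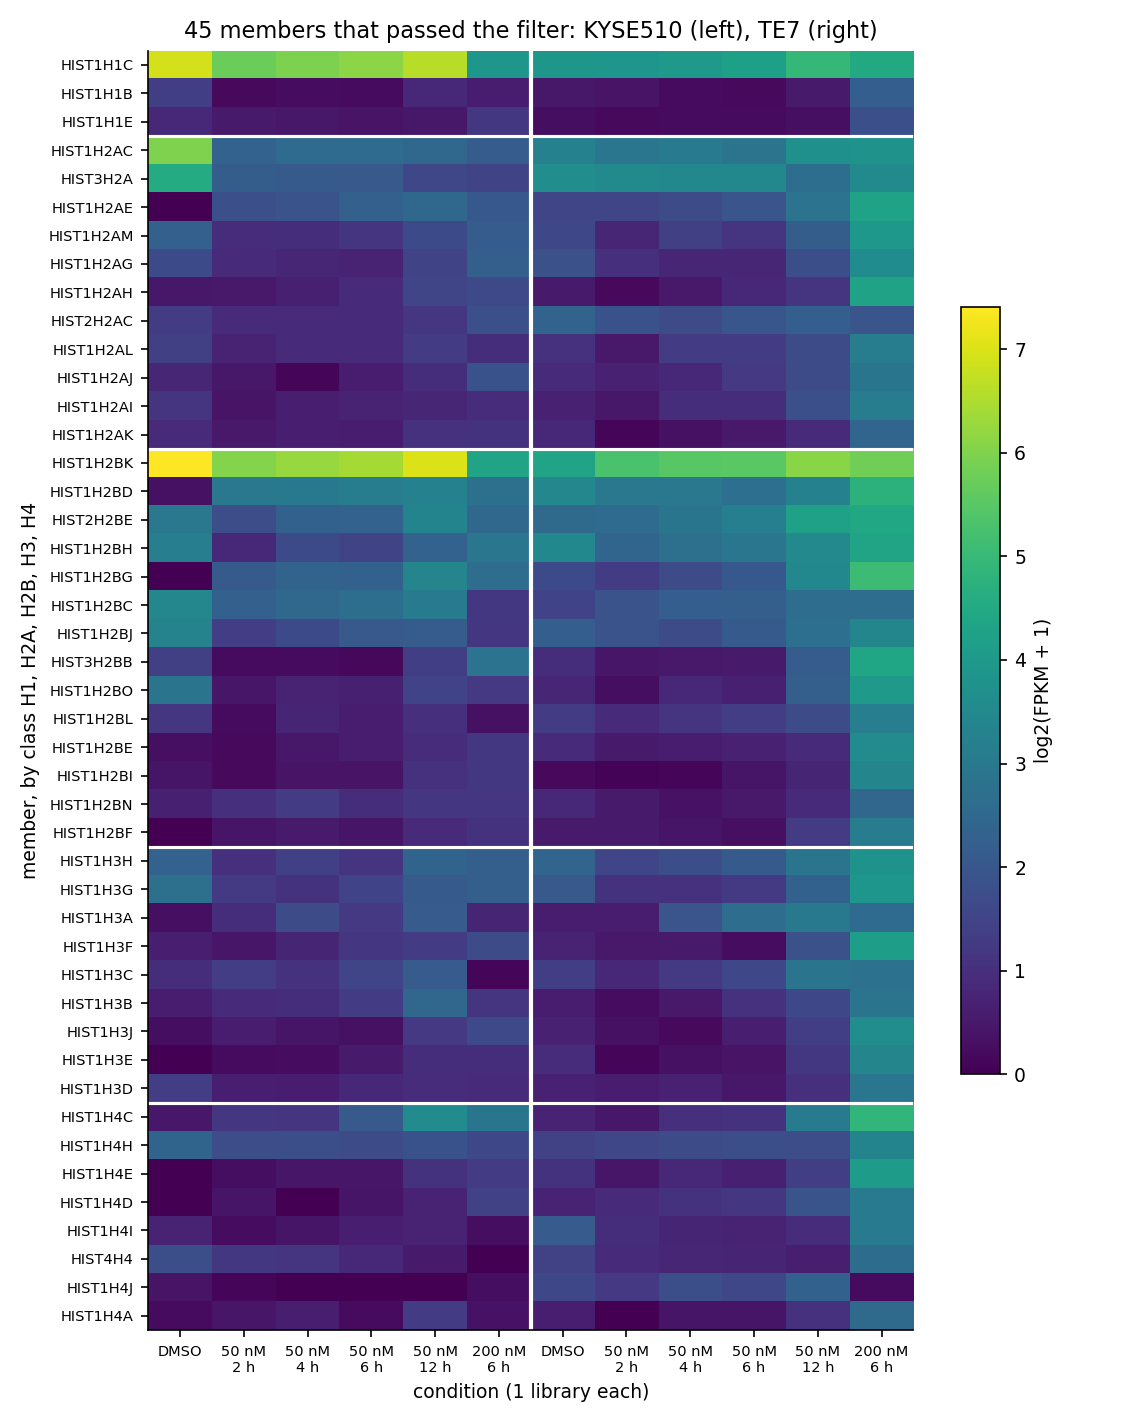
Colour gives log2(FPKM + 1) of the 45 members that passed the filter (one line each, by class and then by mean level) in the 12 libraries (columns, KYSE510 left and TE7 right, 1 library per condition). HIST1H1C and HIST1H2BK were brightest in KYSE510, most genes were brighter than in TE7 DMSO in the library labelled TE7 200 nM, and HIST1H2BG and HIST1H2AE were at 0 in that labelled KYSE510 DMSO.

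Loci over 1 kb in the authors' tables, which span more than a single-exon histone gene, included HIST1H2BK, HIST1H2AC, HIST1H2BD and HIST2H2BE among the 9 high members. The 22 long loci had a median mean level of 1.34 FPKM and the 54 short ones 1.11 FPKM. HIST1H1C, the most abundant H1 gene, and HIST3H2A were short loci. Of the near-identical HIST2 copies, HIST2H2AA3 averaged 0.321 FPKM and reached 1.45 in TE7 DMSO, while HIST2H2AA4, HIST2H3A, HIST2H3C, HIST2H4A and HIST2H4B averaged under 0.02 FPKM each. How reads shared by such copies were counted is not given in the sources used here, so their levels are uncertain. The same holds for the members that overlap another on hg19: HIST1H3D with HIST1H2AD, HIST1H2BK with HIST1H4I, and HIST1H3J with HIST1H2AM.

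From 2 to 12 h of 50 nM THZ1 most histone genes went up in both lines (55 of 76), while 61.7% of the 15610 tested genes went down in both. Bulk libraries cannot tell fewer cells in a state of the cell cycle from less RNA per cell, and hours of THZ1 and time in culture cannot be told apart. The 76 members summed to 170 FPKM in KYSE510 at 2 h, 199.9 at 4 h, 221 at 6 h and 347.2 at 12 h. In TE7 the sums were 119, 140.4, 152.2 and 271.4 FPKM. Both lines thus had their lowest sum at 2 h and their highest at 12 h among the 50 nM libraries. As a share of all FPKM the members went from 0.0377% to 0.0677% in KYSE510 and from 0.0202% to 0.0372% in TE7. Without HIST1H2BK, HIST1H1C and HIST1H2AC, the sum of the other 73 members was 48.2 FPKM at 2 h and 116.9 at 12 h in KYSE510, and 61.1 and 162.2 in TE7. The number of members at 1 FPKM or more went from 17 to 32 in KYSE510 and from 16 to 36 in TE7.

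**Figure D2:**
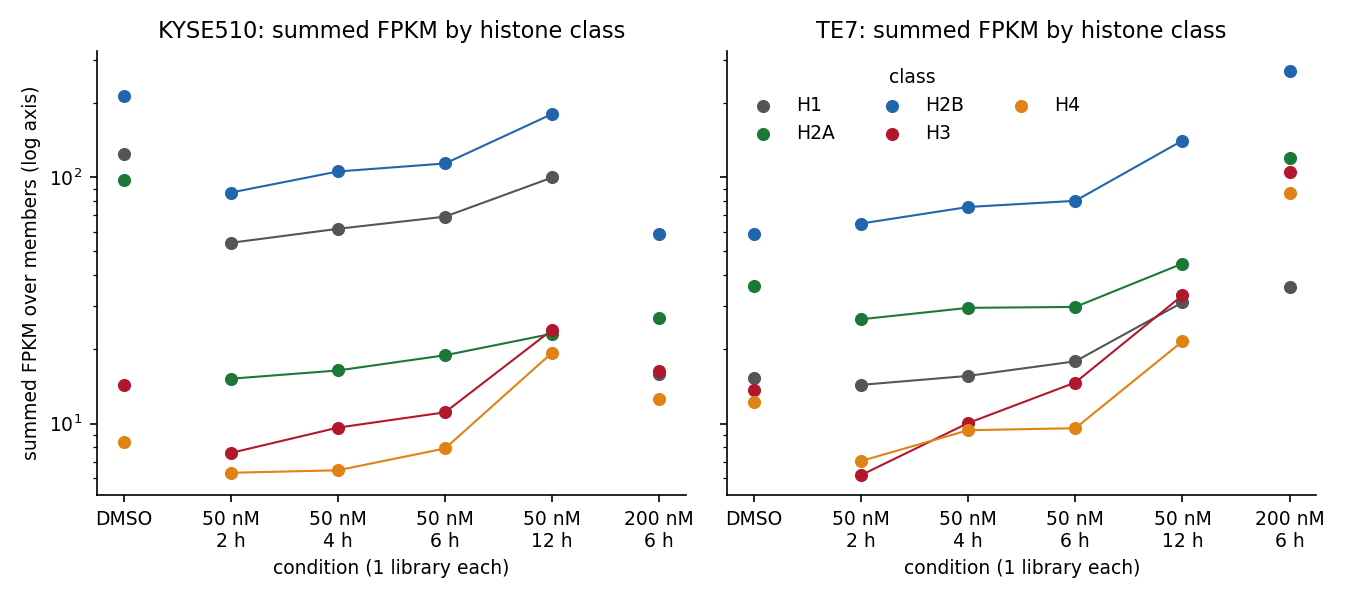
Summed FPKM of the members of each class (log axis) by condition in KYSE510 (left) and TE7 (right). Each point is 1 library, and lines join the 4 time points of 50 nM. Between 2 and 12 h the H3 sum was higher in each line, at 24.04 FPKM (KYSE510) and 33.15 (TE7) after 7.60 and 6.18.

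Of the 76 members 2, HIST3H2A and HIST4H4, were lower at 12 h than at 2 h in both lines. Of the 35600 genes above 0 in any library, 13.5% were higher in both lines and 37.7% lower. The highest of the 4 times was 12 h in both lines for 47 members (61.8%), against 12.6% of tested genes. Of the 45 tested members, 6 rose and 0 fell in the limma fit to the 12 libraries (adjusted p under 0.05), where 1.88% of tested genes rose and 20% fell. Without adjustment 8 of the 45 had p under 0.05. The count of 6 became 0 when a single 2, 4 or 12 h library was omitted, 1 without either 6 h library and 20 without either 200 nM library. With the 8 libraries of 50 nM alone, 27 of 35 tested members rose and 2 fell, where 10.1% of genes rose and 46.6% fell. The median change of the members on the log2(FPKM + 1) scale was 0.90 in those 8 libraries, against −0.44 over all tested genes. In the 8 libraries 33 of the 35 members were above 0 as deposited, 33 with median-of-ratios scaling and 32 with equal sums of FPKM. In the 12 libraries HIST1H4H was at −0.03 with equal sums, against 0.13 as deposited. The count of 27 fell to 17 of 27 tested without the TE7 12 h library, and to 3 without the cell-line block. HIST1H2AG, HIST1H2AH, HIST1H2BO, HIST1H3J, HIST1H4A, HIST1H4E and HIST3H2BB reached 1 FPKM at 50 nM only at 12 h, so they entered the 8-library test through the group where they are high and had to differ. Of the other 28 tested members 20 rose and 2 fell.

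**Figure D3:**
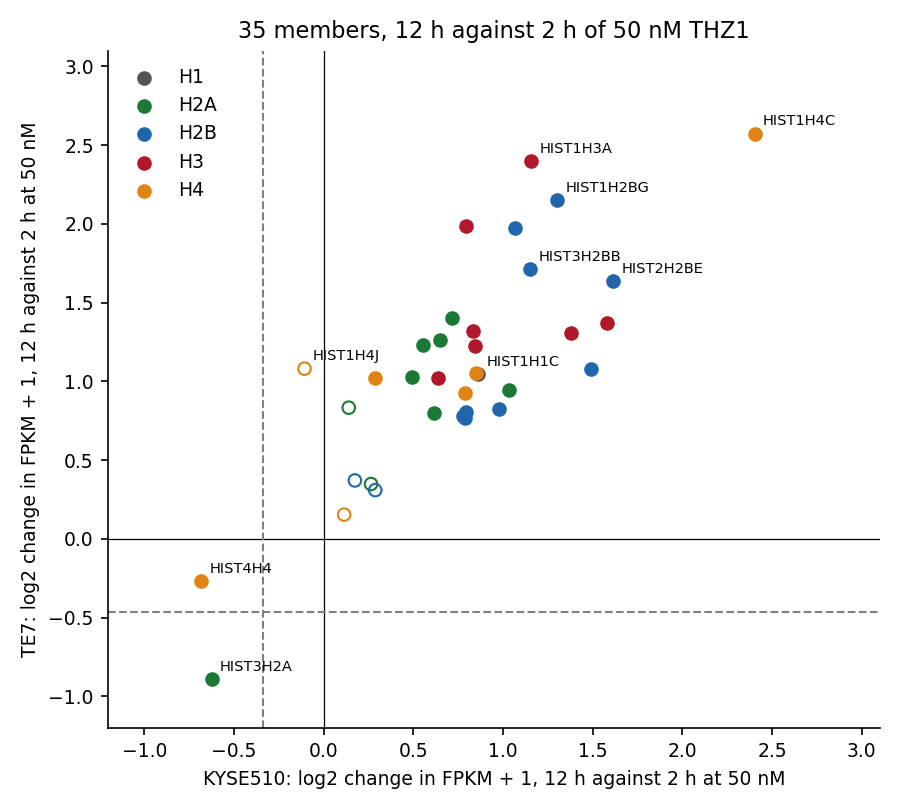
Log2 change in FPKM + 1 from 2 to 12 h of 50 nM THZ1 in KYSE510 (x axis) and TE7 (y axis) for the 35 members tested in the 8 libraries of 50 nM. Filled points passed the limma test over those libraries, open points did not, and dashed lines mark the median tested gene, −0.34 in KYSE510 and −0.46 in TE7. HIST1H4C lies farthest up in both lines, and HIST3H2A and HIST4H4 are the members below 0 in both.

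In class H1, HIST1H1C made up nearly the whole signal, 94.8% to 98.8% of the H1 sum in the 50 nM libraries of KYSE510 and TE7. It stood at 53.2, 60.7, 68.4 and 97.7 FPKM after 2, 4, 6 and 12 h in KYSE510, and at 13.8, 14.9, 17.3 and 29.4 FPKM in TE7. It went up at each step in both lines, and the KYSE510 values lay above all TE7 values. The change from 2 to 12 h was 0.95 ± 0.10 on the log2(FPKM + 1) scale (SE, adjusted p = 0.000693, limma, 8 libraries of 50 nM). It did not pass in the fit to the 12 libraries. The germline H1 gene HIST1H1T averaged 0.0116 FPKM, and the S phase H1 genes HIST1H1D, HIST1H1B and HIST1H1E stayed below 1 FPKM in each 50 nM library.

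Class H2A had the smallest ratio of its 12 h sum to its 2 h sum in both lines, with 15.2 FPKM at 2 h and 23.2 at 12 h (KYSE510) and 26.5 and 44.6 (TE7). In the 8 libraries 6 of 9 tested H2A genes rose and 1 fell, and 4 of 7 rose without the 2 that passed the filter through 12 h alone. HIST1H2AE stood at 2.54, 2.70, 3.88 and 4.54 FPKM over the 4 times in KYSE510 and at 1.96, 2.33, 2.87 and 6.10 in TE7, a change of 0.96 ± 0.19 (SE, adjusted p = 0.00649, limma, 8 libraries). HIST1H2AM changed by 1.06 ± 0.21. HIST1H2AC, the H2A gene of highest mean over the 12 libraries, did not pass (4.00 to 4.51 FPKM in KYSE510 and 6.47 to 12.3 in TE7 from 2 to 12 h). In TE7, HIST3H2A lay above it at 2, 4 and 6 h.

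HIST3H2A (chr1:228645065-228645560) went the other way. Its levels were 3.58, 3.33, 3.17 and 1.97 FPKM over the 4 times in KYSE510, and 10.8, 10.0, 9.95 and 5.34 in TE7. It was lowest at 12 h in both lines, and it fell by 0.76 ± 0.13 on the log2(FPKM + 1) scale (SE, adjusted p = 0.00322, limma, 8 libraries). Its change in the fit to the 12 libraries stayed negative with median-of-ratios scaling (−0.34) and with equal sums (−0.96), and it was not called there.

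Class H2B carried the largest sum, 86.7 to 180.8 FPKM in KYSE510 and 64.9 to 141 in TE7 from 2 to 12 h. In the 8 libraries 9 of 11 tested H2B genes rose and none fell, and 7 of 9 rose without the 2 that passed the filter through 12 h alone. HIST1H2BK stood at 64.5, 76.1, 83.6 and 128 FPKM in KYSE510 and at 37.7, 43.9, 44.6 and 67.5 in TE7, a change of 0.90 ± 0.09 (SE, adjusted p = 0.000523, limma, 8 libraries). HIST1H2BG stood at 3.24, 4.15, 3.94 and 9.46 FPKM in KYSE510 and at 1.48, 2.26, 3.09 and 10.0 in TE7. Most of that difference appeared between 6 and 12 h, and the change was 1.73 ± 0.22 (adjusted p = 0.00118). HIST2H2BE stood at 2.35, 3.95, 4.02 and 9.24 FPKM in KYSE510 and at 5.04, 6.40, 8.17 and 17.8 in TE7, and rose in the 12 libraries too (1.63 ± 0.46, adjusted p = 0.0409, limma). HIST1H2BH also rose in both fits, by 1.28 (0.797 to 4.05 FPKM in KYSE510 and 4.33 to 10.2 in TE7).

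HIST3H2BB lies divergently beside HIST3H2A and was low until 6 h. It stood at 0.157, 0.163, 0.107 and 1.57 FPKM in KYSE510 and at 0.356, 0.419, 0.457 and 3.45 in TE7. In the authors' confidence bounds the KYSE510 values ran from 0 to 0.338 FPKM at 2 h and from 0.987 to 2.15 at 12 h, which do not overlap. HIST3H2BB rose by 1.43 ± 0.42 in the 12 libraries (SE, adjusted p = 0.0445, limma), where the library labelled KYSE510 DMSO and both 200 nM libraries also carried it past the filter. HIST1H2BD and HIST1H2BN did not pass, with changes of 0.30 and 0.27.

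The 7 H3 genes tested in the 8 libraries rose, 1 of which (HIST1H3J) passed the filter through 12 h alone. The other 8 H3 genes were not tested there. HIST1H3H stood at 1.01, 1.67, 1.16 and 4.24 FPKM in KYSE510 and at 1.91, 2.42, 3.27 and 6.20 in TE7 (1.34 ± 0.18, adjusted p = 0.00142, limma). HIST1H3A stood at 0.948, 2.29, 1.34 and 3.34 FPKM in KYSE510 and at 0.518, 2.84, 5.23 and 7.003 in TE7 (1.78 ± 0.40, adjusted p = 0.00998). These 2 genes passed in the 12 libraries as well. HIST1H3B, HIST1H3C, HIST1H3F, HIST1H3G and HIST1H3J rose by 0.83 to 1.48. HIST3H3, the testis H3 gene, averaged 0.00793 FPKM.

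Class H4 held the largest single change. HIST1H4C (chr6:26104104-26104518) stood at 1.26, 1.23, 3.19 and 10.97 FPKM over the 4 times in KYSE510 and at 0.382, 1.003, 1.14 and 7.22 in TE7. In both lines the 12 h value lay above every earlier value, and its authors' lower bound (9.04 FPKM in KYSE510, 5.74 in TE7) lay above the upper bounds at 6 h (4.21 and 1.70). HIST1H4C rose by 2.49 ± 0.64 on the log2(FPKM + 1) scale in the 12 libraries (SE, adjusted p = 0.0290, limma) and by 2.49 ± 0.21 in the 8 (adjusted p = 0.000338). HIST1H4D rose by 0.66 in the 8 libraries, and HIST1H4A and HIST1H4E, which passed the filter through 12 h alone, changed by 0.95 and 0.86. HIST1H4H (0.13) and HIST1H4J (0.49) did not pass. HIST4H4, apart from the other clusters on chromosome 12, stood at 1.32, 1.17, 0.786 and 0.445 FPKM in KYSE510 and at 0.840, 0.730, 0.694 and 0.526 in TE7. It went down at every step in both lines, and it fell by 0.48 ± 0.17 in the 8 libraries (SE, adjusted p = 0.0491, limma).

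**Figure D4:**
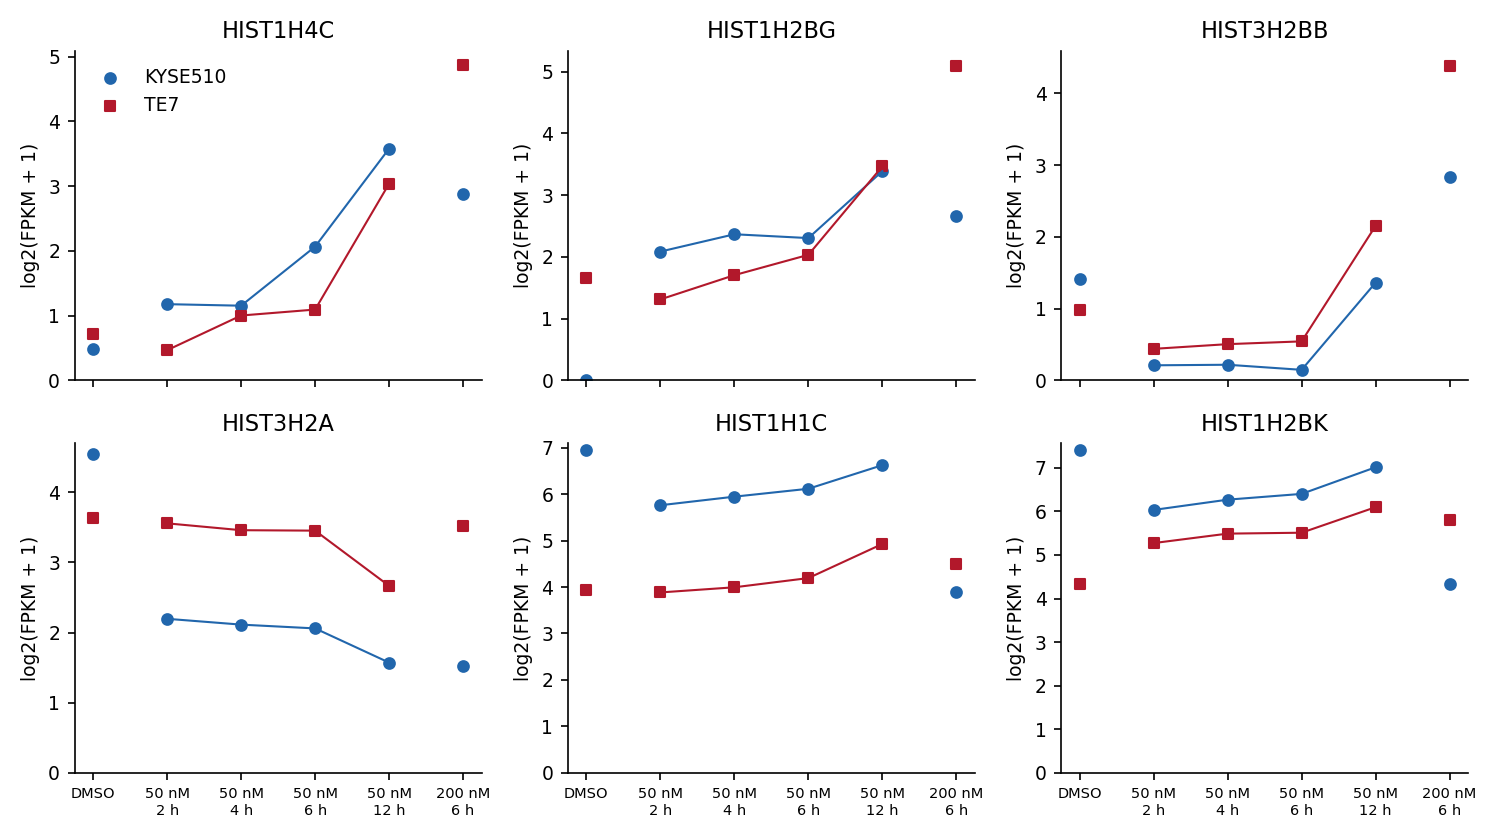
log2(FPKM + 1) of 6 members by condition, with circles for KYSE510 and squares for TE7 (1 library per point). Lines join the 4 times of 50 nM. HIST1H4C, HIST1H2BG and HIST3H2BB are highest at 12 h among the 50 nM libraries, HIST3H2A is lowest there, and HIST1H1C and HIST1H2BK are lower at 200 nM than in DMSO in KYSE510 and higher in TE7.

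H2A and H2B genes often lie head to head across a short shared promoter, and 11 such pairs had overlapping RefSeq windows, 1 of them (HIST1H2AA and HIST1H2BA) at 0 in all libraries. In 9 of the 11 pairs both partners were higher at 12 h than at 2 h in both lines. The H2B partner changed more than the H2A partner in both lines in 6 pairs, and the reverse held in 1. HIST1H2BG changed by 1.30 in KYSE510 and 2.15 in TE7, and its partner HIST1H2AE by 0.65 and 1.27. HIST2H2BE changed by 1.61 and 1.64, and its partner HIST2H2AC by 0.26 and 0.35. HIST3H2A and HIST3H2BB were the pair that moved in opposite directions in both lines, −0.62 and −0.89 for HIST3H2A against 1.15 and 1.71 for HIST3H2BB. Their windows share 271 bases of GRCh38.p14. No test compared partners.

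Against DMSO, no member passed the test at 2, 4 or 6 h of 50 nM in the 12 libraries, where 0.0128%, 0.0256% and 0.692% of all genes rose and 0%, 0.0512% and 4.02% fell. Without adjustment 4, 4 and 3 of the 45 members had p under 0.05. At 2 h the median member change was −0.33, against 0.00 over all genes, and 31 of the 76 members were lower than DMSO in both lines (8 higher), against 21.6% and 16.6% of genes above 0. In TE7, 50 members were below DMSO at 2 h and 14 above. HIST1H2BH was at 9.90 FPKM in TE7 DMSO and 4.33 at 2 h, and HIST1H3G at 3.23 and 1.13. With the 3 libraries that stand apart left out, TE7 DMSO is the sole control. That arm then holds 1 library, which is assumed to vary like the other groups. HIST1H2BH fell at 2 h (−1.17 ± 0.20, adjusted p = 0.04996, limma) and HIST1H2BK rose (0.89 ± 0.12, adjusted p = 0.0343), where 1.05% and 0.809% of genes did. At 4 h 2 members rose and 2 fell, where 2.76% and 8.01% of genes did, and at 6 h 3 and 3, where 4.88% and 20% did. HIST1H2BK and HIST1H2BC were among the rises and HIST1H2AG and HIST1H3G among the falls at both times.

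At 12 h of 50 nM, 4 members rose against DMSO and 1 fell in the 12 libraries, where 3.27% of genes rose and 25.2% fell. Scaled by median of ratios, 5 rose and 0 fell. HIST1H4C was at 0.402 and 0.651 FPKM in the DMSO libraries of KYSE510 and TE7, against 10.97 and 7.22 at 12 h, and rose by 2.70 ± 0.64 (SE, adjusted p = 0.0171, limma). HIST1H3A went from 0.227 FPKM to 3.34 (KYSE510) and from 0.471 to 7.003 (TE7), a rise of 2.13 ± 0.50 (adjusted p = 0.0166). HIST1H2BG (2.59) and HIST1H4D (0.96) also rose, and both are at 0 in the library labelled KYSE510 DMSO. HIST3H2A, at 22.4 FPKM in DMSO and 1.97 at 12 h (KYSE510) and at 11.5 and 5.34 (TE7), fell by 1.98 ± 0.60 (adjusted p = 0.0412). Its change was −0.80 (adjusted p = 0.0973, limma) without the library labelled KYSE510 DMSO, and HIST1H4C, HIST1H2BG and HIST1H4D also missed the threshold without it. HIST1H3A and HIST1H4D missed it without TE7 DMSO. Either 200 nM library left out gave 12 higher and 2 lower members, and a 4 or 6 h library left out gave 2 and 0. Leaving out the 12 h library of either line left no member called. Leaving out all 3 libraries that stand apart, again with TE7 DMSO as the lone control, gave 15 of 35 members higher and 2 lower, where 8.58% of genes rose and 44.6% fell, with HIST1H2BK (1.79), HIST2H2BE (1.63) and HIST1H4C (2.29) among the higher and HIST3H2A (−0.87) and HIST4H4 (−0.96) the lower. Also among the higher, HIST1H2AH (0.69), HIST1H2BO (1.175) and HIST3H2BB (0.99) reached 1 FPKM in these 9 libraries only at 12 h. They thus entered this fit through the group where they are high and had to differ.

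The library labelled KYSE510 DMSO lacked a stretch of the HIST1 cluster. Of the 11 members from HIST1H4D to HIST1H4G (hg19 chr6:26188938-26247259), 10 were listed at 0 there and 1 in TE7 DMSO. HIST1H2AD was listed at 1.505e-18 FPKM in TE7 DMSO, in effect 0. HIST1H4G, HIST1H4F and HIST1H4D were above 0 in only 3, 8 and 10 of the other 11 libraries, so their zeros are not particular to this library. HIST1H3D, inside the stretch, was at 1.54 FPKM. HIST1H2BG was at 0 there and between 1.48 and 32.9 FPKM in the other 11 libraries, and HIST1H2AE between 1.95 and 18.4. Before the stretch, HIST1H2BD was at 0.264 FPKM there against 5.49 to 25.98 elsewhere. HIST1H2BE, between HIST1H2BD and the stretch, was at 0.233 FPKM there and between 0.141 and 10.9 in the other 11 libraries. Conversely HIST1H2AC was at 62.2 FPKM in that library and at 3.45 to 12.7 in the other 11. The DMSO comparisons are given above with this library left out. That removes all its other values too, so the part of these genes alone was not tested.

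At 200 nM for 6 h most histone genes were higher than in DMSO in the library labelled TE7 200 nM, while in that labelled KYSE510 200 nM some members were higher and the most abundant ones lower. The 76 members summed to 616.4 FPKM in TE7 at 200 nM, against 136.6 in TE7 DMSO and 152.2 at 50 nM for 6 h. In KYSE510 they summed to 130.6 FPKM at 200 nM, against 459.1 in DMSO and 221 at 50 nM for 6 h. Without the 3 highest members the KYSE510 sum was 94.0 FPKM at 200 nM, 105.1 in DMSO and 64.0 at 50 nM. In TE7, 51 of the 76 members were at least 2-fold above DMSO on the log2(FPKM + 1) scale and 2 were 2-fold below, where 3.74% and 37.8% of tested genes were. In KYSE510 the counts were 12 and 8, where 7.57% and 34% of tested genes were. The largest KYSE510 increases were 2.66 for HIST1H2BG, 2.40 for HIST1H2BD and 2.39 for HIST1H4C on that scale. HIST1H2BG and HIST1H2BD were at 0 and 0.264 FPKM in the library labelled KYSE510 DMSO.

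**Figure D5:**
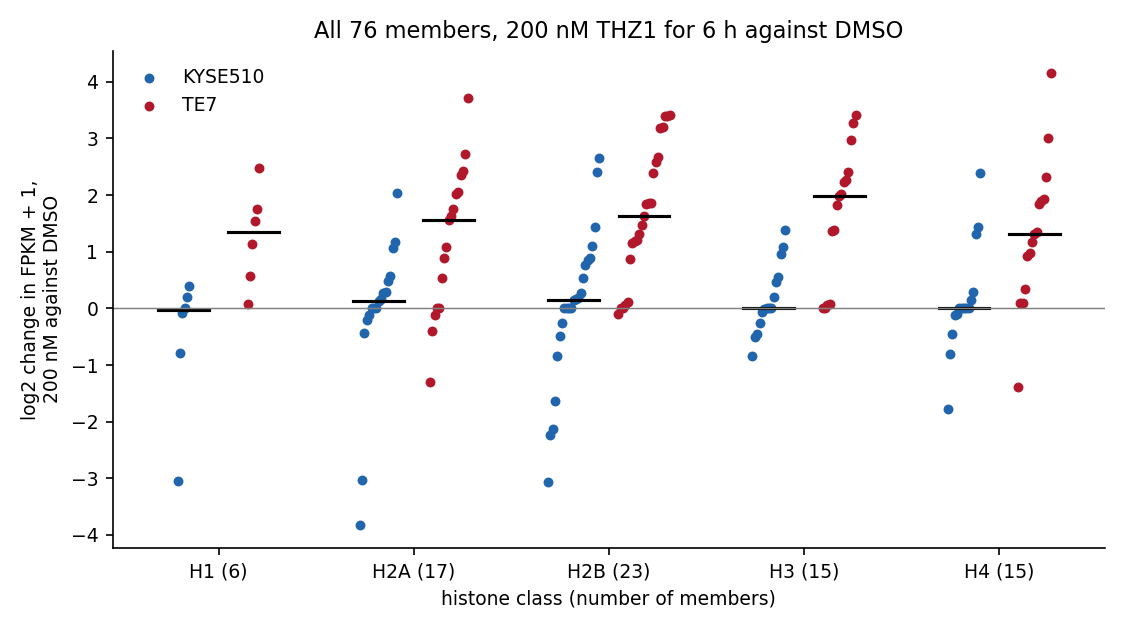
Log2 change in FPKM + 1 between 200 nM THZ1 for 6 h and DMSO for all 76 members by class, in KYSE510 (blue) and TE7 (red). Each point is 1 member, black bars are class medians, and members at 0 in both libraries lie at 0. The TE7 medians range from 1.30 in H4 to 1.99 in H3, and the KYSE510 medians from −0.04 in H1 to 0.15 in H2B.

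In the 12 libraries 15 of 45 members rose against DMSO and none fell, where 3.22% of genes rose and 35.3% fell, and 19 members had an unadjusted p under 0.05. The median member changed by 0.97, against −0.65 over all genes, and by 1.39 and 1.19 with median-of-ratios scaling and equal sums. HIST1H1E and HIST1H2BE reached 1 FPKM only in the 200 nM libraries and so passed the filter through the group where they are high. The other 13 were 4 H2A, 4 H2B, 2 H3 and 3 H4 genes, of 43 tested. HIST1H4C was at 6.36 FPKM in KYSE510 and 28.3 in TE7 at 200 nM and rose by 3.27 ± 0.64 (SE, adjusted p = 0.00587, limma). HIST1H2BG was at 5.31 and 32.9 FPKM (3.04 ± 0.77, adjusted p = 0.0170), and HIST3H2BB at 6.13 and 19.8 FPKM against 1.65 and 0.971 in DMSO (2.42 ± 0.42, adjusted p = 0.00363). HIST1H2AH was at 2.13 and 18.2 FPKM against 0.384 and 0.454 in DMSO (2.45 ± 0.67, adjusted p = 0.0232). Fewer members rose, and some fell, without the library labelled TE7 200 nM, while more rose without that labelled KYSE510 200 nM. Fewer also rose without either DMSO library, and HIST1H2BG (2.28) missed the threshold without that labelled KYSE510 DMSO. Each of these fits leaves 1 library in a compared group, which is assumed to vary like the other groups. Shares of all genes are not given for them. Leaving out all 3 leaves no 200 nM library, so no value can be had.

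Against 50 nM at the same 6 h, 16 of 45 members rose at 200 nM and none fell, where 2.94% of genes rose and 21.9% fell. HIST3H2BB, at 0.107 FPKM with 50 nM and 6.13 with 200 nM (KYSE510) and at 0.457 and 19.8 (TE7), rose most (3.26 ± 0.42, SE, adjusted p = 0.00198, limma). HIST1H4C was at 3.19 and 6.36 FPKM (KYSE510) and at 1.14 and 28.3 (TE7), and rose too (2.29 ± 0.64, adjusted p = 0.0344). HIST1H2AG, HIST1H3F, HIST1H3J and HIST1H4E rose by 2.14 to 2.22. All 16 were higher in both lines, and 14 of 43 remain without HIST1H1E and HIST1H2BE. Among all 76 members 34 were higher in both lines and 1 lower, against 16.1% and 30.1% of genes above 0. At least 2-fold differences numbered 49 up and 1 down in TE7, where 4.01% and 24.6% of tested genes had them, and 8 and 4 in KYSE510, where 6.73% and 29.4% had them. The limma count of 16 became 8 without a 4 or 12 h library, and 9 without a 2 h library. It was also lower without the library labelled TE7 200 nM, and lowest without the 50 nM 6 h library of either line. Without the library labelled KYSE510 200 nM it was higher. Leaving out a 6 h library leaves 1 library in a compared group, which is assumed to vary like the other groups. Shares of all genes are not given for these fits.

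The abundant members HIST1H1C and HIST1H2BK did not share these rises in KYSE510. HIST1H1C was at 13.9 FPKM in KYSE510 at 200 nM against 122 in DMSO and 68.4 at 50 nM for 6 h, and at 21.7 in TE7 against 14.3 and 17.3. HIST1H2BK was at 19.3 FPKM in KYSE510 against 170 and 83.6, and at 55.2 in TE7 against 19.3 and 44.6. The lines thus lay in opposite directions for both genes. HIST1H4J was at 0.168 FPKM in the library labelled TE7 200 nM and at 1.33 to 3.93 in the other TE7 libraries. That library held few of the genes that mark the TE7 50 nM libraries, as given above, and what part this has in its histone values was not tested.

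Between the lines, the members leaned to TE7 over the 12 libraries but not over the 8 of 50 nM. In the 12, 15.6% of tested members had a higher fitted level in KYSE510, against 41.9% of genes. In the 8 these shares were 45.7% and 44.9%. In the 12 libraries HIST1H1C was the only member called higher in KYSE510 (1.64 ± 0.40, SE, adjusted p = 0.0123, limma), where 17.5% of genes were. Of the 45 members tested, 8 were called lower, where 28.9% of genes were, and both shares of members were below those of all genes. The 8 were HIST1H4J (−1.33), HIST1H2BH (−1.15), HIST3H2A (−1.05), HIST1H4D (−0.96), HIST2H2AC (−0.86), HIST2H2BE (−0.79), HIST1H3H (−0.66) and HIST1H2AJ (−0.56). HIST1H4J was at 0 to 0.0768 FPKM in the 50 nM libraries of KYSE510 and at 1.33 to 3.93 in those of TE7, with no overlap. It reached 1 FPKM in TE7 libraries alone, so it entered this test through the line where it is high and had to differ. With the 8 libraries of 50 nM alone 6 of 35 members were higher in KYSE510 and 11 lower, where 30.2% and 39.7% of genes were, so that both shares of members were below those of all genes. In those libraries HIST1H2AJ, HIST1H2BL, HIST1H4D and HIST1H4J reached 1 FPKM in TE7 alone, and HIST1H2BN in KYSE510 alone. The counts hold these genes, though each entered through the line where it is high and had to differ. With TE7 DMSO added (9 libraries) the counts were again 6 and 11, where 29.8% and 39.8% of genes were. The 8 lower members of the 12 libraries became 4 when a single 4, 6 or 12 h library was omitted. Line, medium and library cannot be told apart in this comparison.

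From 2 to 12 h of 50 nM THZ1, most genes for making and processing histone mRNA fell while the histone transcripts rose. Of 27 genes for histone transcription and stem-loop processing, 4 rose and 18 fell in the 8 libraries of 50 nM, where 10.1% and 46.6% of all genes did. Their median change was −0.79, against −0.44 over all genes. In the 12 libraries 1 rose and 11 fell, where 1.88% and 20% of all genes did. At 12 h against DMSO 1 rose and 10 fell in the 12 libraries, where 3.27% and 25.2% of all genes did. NPAT, the coactivator of histone gene transcription, was at 6.45, 4.00, 2.13 and 0.730 FPKM over the 4 times in KYSE510 and at 7.95, 3.83, 2.33 and 1.48 in TE7. It went down at every step in both lines and fell by 1.98 ± 0.17 (SE, adjusted p = 0.000346, limma). CASP8AP2 (FLASH), which joins the U7 snRNP to the cleavage factors, fell by 1.92, and CPSF3, the endonuclease that cuts histone pre-mRNA, by 2.06. SLBP, the stem-loop binding protein, was at 59.5, 70.6, 70.2 and 49.3 FPKM in KYSE510 and at 95.2, 105, 101 and 42.3 in TE7. Among these 4 times it was highest at 4 h and lowest at 12 h, with 26.4 (KYSE510) and 69.1 FPKM (TE7) in DMSO. SLBP changed by 0.09 at 12 h against DMSO in the 12 libraries, not called, and lay above DMSO in KYSE510 but below it in TE7. It fell by 0.71 ± 0.21 from 2 to 12 h (adjusted p = 0.0301, limma, 8 libraries). LSM10, SYMPK and ZNF473, further parts of the processing machinery, fell by 1.25, 1.17 and 0.79, and LSM11 did not pass (−0.14). SRRT (ARS2), a partner of the cap-binding complex with a role in histone 3' end formation, was a clear exception. It was at 101, 106, 122 and 332 FPKM in KYSE510 and at 106, 116, 130 and 274 in TE7, and rose by 1.53 ± 0.12 (adjusted p = 0.000282).

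Among the activators of S phase entry, CCNE1 and CCNE2, the E-type cyclins, fell by 1.40 and 1.42 and CDK2 by 0.95. None of these was called at 12 h against DMSO in the 12 libraries (0.26, 0.00 and −0.64). For both cyclins the lines lay in opposite directions in that contrast. CCNE2 was at 5.435 FPKM in DMSO and 8.78 at 12 h in KYSE510, and at 16.4 and 10.5 in TE7. CCNE1 was at 4.94, 24.4 and 9.84 FPKM in DMSO, at 2 h and at 12 h in KYSE510, and at 5.75, 14.7 and 4.27 in TE7. From 2 to 12 h in the 8 libraries, 3 of 13 genes of histone mRNA decay rose and 6 fell, with a median of −0.24. The exonuclease ERI1 fell by 0.48. Of 24 genes of S phase DNA synthesis 1 rose and 14 fell, with a median of −0.82. CDC6 and CCNA2 fell by 1.63 and 1.26, while PCNA (−0.34) and MCM2 (−0.36) did not pass. At 12 h against DMSO in the 12 libraries CDC6 and CCNA2 fell by 0.93 and 1.39, while PCNA (0.41) and MCM2 (0.42) were not called. MCM2 lay above DMSO in KYSE510 and below it in TE7. PCNA was at 208, 230, 233 and 192 FPKM over the 4 times in KYSE510 and at 355, 389, 405 and 240 in TE7. Of 18 histone chaperones 1 rose and 10 fell, with CHAF1A falling by 2.56 and ASF1A by 1.98. Beside these counts, 10.1% of all genes rose and 46.6% fell in the same fit. In the 12 libraries 0 rose in any of these 3 lists, and 3 decay, 10 S phase and 6 chaperone genes fell, where 1.88% of all genes rose and 20% fell.

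Replacement histones, whose genes carry introns or ordinary poly(A) signals, did not follow a common direction at 50 nM. Of 11 tested, 3 rose and 4 fell from 2 to 12 h in the 8 libraries, where 10.1% and 46.6% of all genes did. H3F3A, a gene for H3.3, was at 99.8, 116, 139 and 201 FPKM in KYSE510 and at 272, 311, 335 and 512 in TE7 and rose by 0.95 ± 0.08 (SE, adjusted p = 0.000325, limma). H3F3B, the other H3.3 gene, did not pass (−0.23). The linker histone gene H1F0 fell by 1.63 and the centromeric CENPA by 0.86. At 200 nM against DMSO none of the 11 rose and 8 fell in the 12 libraries, with a median of −1.13, where 3.22% of all genes rose and 35.3% fell. H1F0 was at 20.1 FPKM in KYSE510 and 25.7 in TE7 at 200 nM, against 168 and 182 in DMSO. H2AFZ was at 244 and 140 FPKM against 403 and 409. Of the 27 transcription and processing genes 13 fell and 1 rose against the same shares of all genes, and SLBP fell by 1.61 ± 0.44 (adjusted p = 0.0232), to 17.7 FPKM in KYSE510 and 10.0 in TE7.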

How the data were processed

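Polyadenylated RNA of 12 libraries was sequenced (RNeasy extraction, TruSeq libraries, HiSeq), per the labels' protocols. The authors deposited FPKM per gene for each library, with confidence bounds. STAR, Cufflinks and hg19 are named in the submitters' processing notes, without versions. Neither counts nor strand use are stated, so the depth is unknown and no interval from counts was computed. FPKM is relative to each library's total, so a loss of other RNA raises the values that remain.

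Samples were grouped by line, dose and hours. Limma 3.58.1 in R 4.3.3 was fitted to log2(FPKM + 1) of the 15610 genes that reached 1 FPKM in 2 or more libraries, with condition and cell line as terms, a mean trend and Benjamini-Hochberg adjustment at 0.05. Fold changes on this scale understate the change of low genes. The terms leave 5 residual degrees of freedom. The cell line is the replicate and the block, since each number marks a line. Deviations from the condition means correlated within a line at 0.318 to 0.959 over 15 pairs of conditions. The fit was tested on simulated data. Python 3.11.15, pandas 2.3.3, numpy 2.4.6 and matplotlib 3.10.9 made the tables and plots.

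The members and gene lists were chosen with earlier results of these data known. The genes named were members with a mean of at least 5 FPKM, the 2 highest of each class, up to 10 past the threshold with the largest change in each contrast, and pathway genes listed by name. HIST1H1T, HIST3H3, HIST1H2AE, HIST1H3G, HIST1H3D, HIST4H4, the HIST2 copies, the promoter partners and further members given for the 50 nM libraries alone were named after their values were seen. The fit to the 8 libraries of 50 nM, and its own alternatives, were also added after seeing the data. Other alternatives were pseudocounts of 0.1 and 5, other filters and scalings, no trend, no block, and libraries left out.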

Additional observations from a re-analysis of the deposited data

Results flagged for a closer look

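The abundant members moved in opposite directions in the 2 lines in contrasts with DMSO, and the difference between the lines was not tested, since each line has 1 library per condition. After 2 h of 50 nM THZ1, HIST1H2BK changed by −1.38 (log2 of FPKM + 1) in KYSE510 and by 0.93 in TE7. After 200 nM for 6 h, HIST1H2BK changed by −3.07 in KYSE510 and 1.47 in TE7. HIST1H1C changed by −3.05 and 0.57, and HIST1H2AC by −3.83 and 0.53. The KYSE510 changes use the library labelled KYSE510 DMSO, and both 200 nM libraries also stand apart from their lines. What part this has in these values was not tested.

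The tables also hold 13 histone pseudogene entries that the members leave out, of which 5 were at 0 in all libraries. Among them 6 were higher in the library labelled TE7 200 nM than in TE7 DMSO. HIST1H2APS3 was at 0 and 6.71 FPKM in TE7 DMSO and TE7 200 nM, and HIST1H1PS1 at 0.585 and 5.53 FPKM.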

How the results depend on the processing

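Counts of members past the threshold depended on the processing, while no single-gene result reversed where it could be recomputed. All 23 such results had a value under 18 of 22 alternatives, and 10 to 19 under the other 4 (a mean of at least 5 FPKM, no block, the 8 and the 9 libraries). The causes were not tested. Without the replicate block, which pairs the libraries of a cell line, 0 members rose at 12 h against 2 h, 1 rose and 0 fell at 12 h against DMSO, 5 rose at 200 nM against DMSO and 2 at 200 nM against 50 nM. In the 8 libraries of 50 nM 3 rose and 0 fell without the block. With no filter on low values the counts were 0 higher (12 h against 2 h), 0 higher and 0 lower (12 h against DMSO), 6 and 7 higher (200 nM against DMSO and against 50 nM) and 5 lower in KYSE510. With a mean of at least 5 FPKM required, 3, 2, 2 and 2 members rose in those contrasts and 3 were lower in KYSE510. With a pseudocount of 5, 2 members rose at 12 h against 2 h, 1 against DMSO and 10 at 200 nM against 50 nM, and 5 were lower in KYSE510. Equal sums of FPKM gave 3 higher at 12 h against 2 h and 4 lower in KYSE510. Median-of-ratios scaling gave 0 lower at 12 h against DMSO and 5 lower in KYSE510, and moved the median of all genes at 200 nM against DMSO from −0.65 to −0.06. In the 8 libraries, 1 member fell with median-of-ratios scaling, with no filter or with a pseudocount of 5.

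The 8 libraries alone, and the 9 left without the 3 that stand apart, both gave 27 higher and 2 lower at 12 h against 2 h and 6 members higher in KYSE510. The 9 gave 15 higher and 2 lower at 12 h against DMSO, 1 and 1 at 2 h, 2 and 2 at 4 h, and 3 and 3 at 6 h. Leaving out each library in turn gave 0 to 20 higher at 12 h against 2 h, 17 to 26 higher and 1 to 2 lower in the 8 libraries, and 0 to 12 higher and 0 to 3 lower at 12 h against DMSO. It gave 0 to 3 lower at 2, 4 and 6 h, 8 to 33 higher and 0 to 6 lower at 200 nM against DMSO, 1 to 31 higher and 0 to 4 lower at 200 nM against 50 nM, and 1 to 3 higher and 4 to 11 lower in KYSE510. From 2 to 12 h of 50 nM the class sums kept their direction with 2 members dropped whose values equal another member's in all libraries. The HIST2 copies with unequal values were not dropped. Where 1 library was left out, its condition holds 1 library, which is assumed to vary like the other groups. Shares of all genes called are not given for those fits. Depth is unknown, so the precision of low values rests on the authors' bounds.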
